A study of Mus musculus with 31 samples.

Results

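The Arp2/3 complex was described through the 10 genes that encode its subunits, Actr2, Actr3, Actr3b, Arpc1a, Arpc1b, Arpc2, Arpc3, Arpc4, Arpc5 and Arpc5l. They were chosen by gene symbol and not by a threshold on measured values, although earlier results of these data were known. They are 10 of the 48709 genes in each mouse's table. All 10 passed a filter on low values (10 or more reads in 20% or more of the libraries), which kept 17428 genes. RNA came from the basolateral amygdala (BLA), punched from coronal slices, with both hemispheres of a mouse combined, so that each of the 31 libraries is 1 mouse. It was sequenced by QuantSeq, which reads the 3′ ends of polyadenylated transcripts. The 16 WT mice were controls without the transgene, and the 15 CYFIP1 OE mice carried a bacterial artificial chromosome (BAC) with the human CYFIP1 gene, introduced by pronuclear injection into C57BL/6N mice. The labels name the transgenic lines 1 and 3.

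Line 1 held 8 WT and 7 CYFIP1 OE mice, and line 3 held 8 of each. There were 8 females and 8 males among the WT mice, and 8 females and 7 males among the CYFIP1 OE mice. WT mice were 58 to 61 days old and CYFIP1 OE mice 58 to 77 days old, and the 4 at 77 days were all from the CYFIP1 OE group of line 1. Each line goes back to 1 founder, so the place where the BAC inserted cannot be told apart from the line, and the BLA cells that express the transgene are not given in the sources used here. Mouse Cyfip1 itself was at 33.5 ± 4.48 CPM (normalized counts, with all libraries put on the same total; SD, n = 16) in WT and 33.0 ± 3.66 (SD, n = 15) in CYFIP1 OE mice, which does not check the labels because the transgene is human.

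Libraries held 5286708 to 8685308 counts, with a median of 7387585. One library stood apart from the rest. It came from the male line 3 mouse listed as CYFIP1 OE replicate 1, whose standardized connectivity, a measure of how well its profile correlates with the other libraries, was -4.80, while the next lowest was -1.24. It had the lowest level of 4 of the 10 genes (Actr3, Actr3b, Arpc1a and Arpc5l) and the highest of 2 (Arpc2 and Arpc3), so values that rest on it are given with and without it and it is called the mouse of low connectivity. The study removed samples with a connectivity Z-score under -2, a limit this mouse falls below as computed here. It was kept in the main fits, so those fits and the study's may rest on different mice. Markers of neighbouring tissue were also present. Summed over 4 striatal neuron markers, levels ran from 151 to 2958 CPM over mice, and over 3 choroid plexus markers from 17.1 to 8364 CPM. All 5 basolateral amygdala markers passed the filter, with a summed level of 97.5 to 1401 CPM, and 1 of them, Rspo2, had no count in at least 1 mouse.

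The Arp2/3 complex binds the side of an existing actin filament and starts a new filament there as a branch. The actin-related proteins from Actr2 and Actr3 form the start of the branch, and the ARPC subunits hold the complex together and attach it to the mother filament. It has little activity until a nucleation-promoting factor binds it. The WAVE complex, of which CYFIP1 and CYFIP2 are subunits, is such a factor downstream of the GTPase Rac1, and branched actin made in this way shapes dendritic spines. Some subunits have a second gene in the mouse, so that Actr3b can stand in for Actr3, Arpc1b for Arpc1a and Arpc5l for Arpc5.

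All 10 are protein-coding genes (GRCm38, GENCODE). Chromosome 1 holds Arpc2 (chr1:74236084-74268209, plus strand), Actr3 (chr1:125392905-125435727, minus strand) and Arpc5 (chr1:152766542-152775597, plus strand). Chromosome 5 holds Actr3b (chr5:25759997-25850688, plus strand), Arpc3 (chr5:122391878-122414184, plus strand), Arpc1a (chr5:145083830-145108761, plus strand) and Arpc1b (chr5:145114215-145130705, plus strand), the last a gap of 5453 bases from Arpc1a. The others are Arpc5l (chr2:39005348-39015877, plus strand), Arpc4 (chr6:113378115-113390448, plus strand) and Actr2 (chr11:20062304-20112913, minus strand).

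Sequence upstream of a gene is shown for 4 members. Over the 31 mice Actr2, Actr3 and Arpc1a had Pearson r of 0.59 to 0.73 with each other (Spearman rho 0.25 to 0.50). Without the mouse of low connectivity r was 0.42 to 0.64, so part of this rested on 1 library. Arpc1b, the neighbour of Arpc1a on chromosome 5, had r of -0.24 to 0.16 with them. Each window holds 200 bases on the gene's strand and ends 50 bases before the RefSeq start (RefSeq, build GRCm38.p6). The Arpc1a window lies within the bounds of Kpna7 on the opposite strand, a gene with 0 to 4 counts per mouse. Windows lie at chr11:20113002-20113201 (minus strand), chr1:125435778-125435977 (minus strand), chr5:145083619-145083818 (plus strand) and chr5:145114006-145114205 (plus strand), in the order of the lines. Capitals mark matches to the CCAAT box (CCAAT) or the GC box (GGGCGG) on either strand.
Actr2: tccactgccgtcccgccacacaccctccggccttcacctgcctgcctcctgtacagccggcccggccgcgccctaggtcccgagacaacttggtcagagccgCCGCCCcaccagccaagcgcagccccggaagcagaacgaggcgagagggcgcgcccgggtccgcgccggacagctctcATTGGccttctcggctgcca
Actr3: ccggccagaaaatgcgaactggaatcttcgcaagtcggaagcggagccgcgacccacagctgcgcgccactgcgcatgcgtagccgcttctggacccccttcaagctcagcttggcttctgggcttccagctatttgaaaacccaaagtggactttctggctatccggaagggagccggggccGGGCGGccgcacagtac
Arpc1a: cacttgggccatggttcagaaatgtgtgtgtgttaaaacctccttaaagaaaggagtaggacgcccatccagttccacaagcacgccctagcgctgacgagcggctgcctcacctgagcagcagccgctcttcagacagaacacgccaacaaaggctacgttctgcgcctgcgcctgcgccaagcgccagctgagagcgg
Arpc1b: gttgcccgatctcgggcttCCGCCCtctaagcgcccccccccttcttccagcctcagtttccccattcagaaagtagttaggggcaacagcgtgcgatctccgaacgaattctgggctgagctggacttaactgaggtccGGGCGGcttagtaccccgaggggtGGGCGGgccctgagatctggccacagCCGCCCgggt
The Arpc1b window held 4 GC box matches, those of Actr2 and Actr3 held 1 each and that of Arpc1a held 0. Over the 8 members with an entry in the table, 5 had a GC box match, 2 a CCAAT box match, 1 a CArG box match (Arpc4) and 0 a TATA box match (TATAAA), all searched on both strands. Of 32851 RefSeq windows of the same length, 24.6% held a GC box match, 28.4% a CCAAT box match, 1.16% a CArG box match and 9.14% a TATA box match. A CArG box match can share letters with a CCAAT or a TATA box match, and the other motifs were counted separately. A match describes the letters only.

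Levels are given as CPM scaled by the TMM method of edgeR. A 3′ library draws its reads from the end of each transcript whatever its length, so levels of different genes were set side by side without a length correction, although priming and mapping at the 3′ end can still differ between genes. All 10 genes were well above the filter. Arpc1b had the lowest counts, and counting error at its mean count was 7.32%, beside a coefficient of variation of 24.2% over the 31 mice. For the other 9 genes counting error was between 2.46% and 5.46%, while the coefficients of variation were 12.2% to 23.2%, so most of the spread between mice was not counting error.

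**Figure D1:**
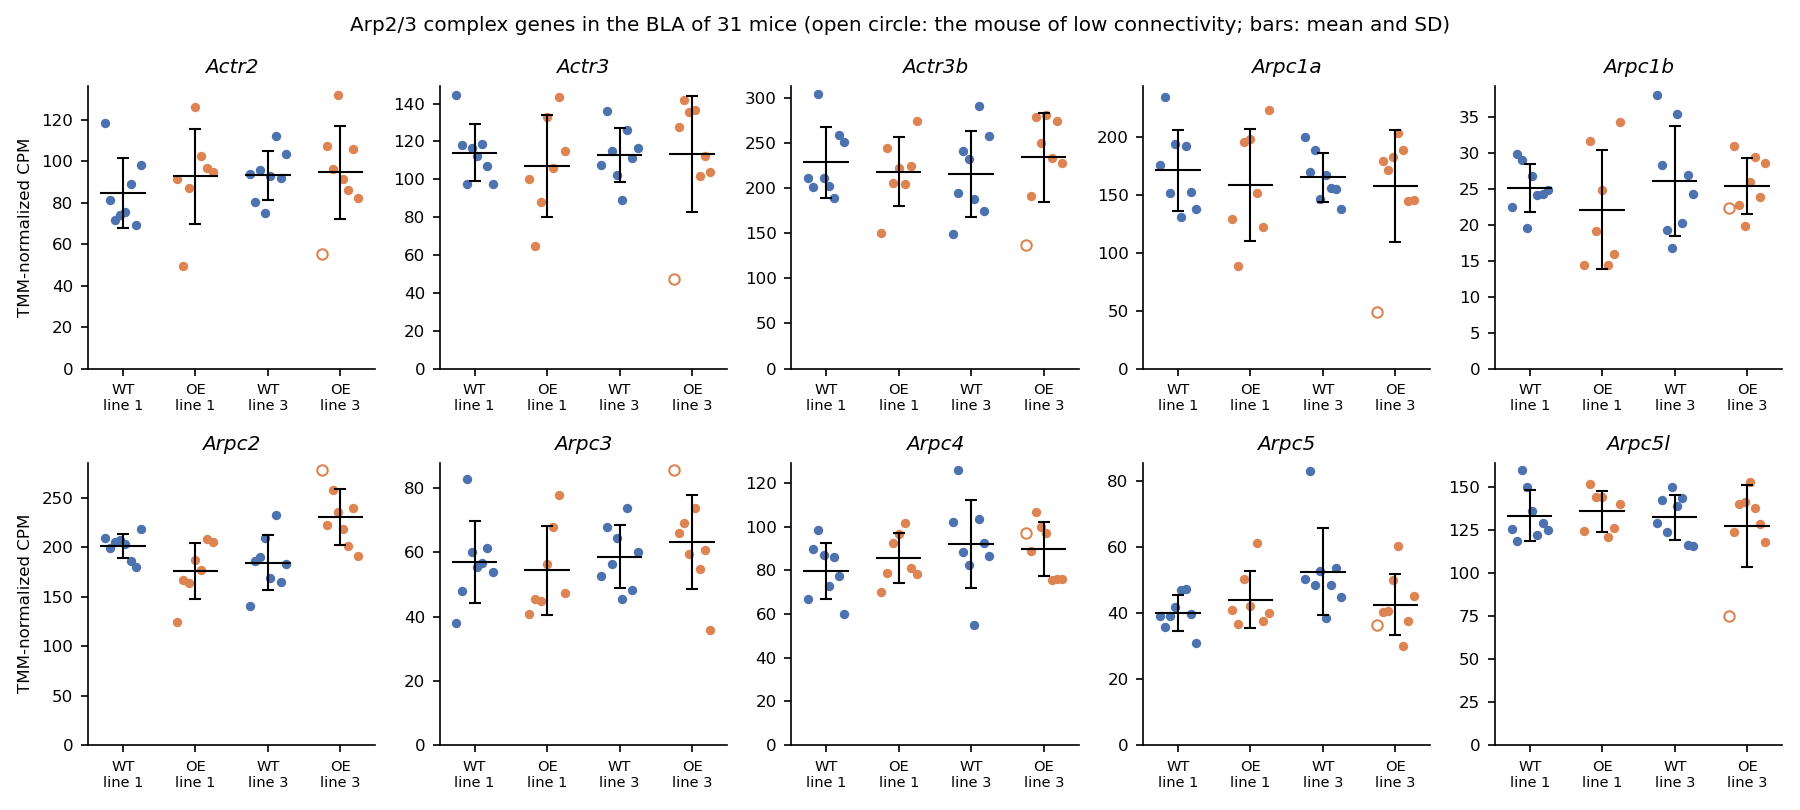
TMM-normalized CPM (y axis) of each Arp2/3 complex gene in each mouse, by genotype and line (x axis); points are mice, bars are the mean and SD, and the open circle is the mouse of low connectivity. For Arpc2, 2 of 7 CYFIP1 OE mice lie above the WT mean in line 1 and 8 of 8 in line 3, and for Actr3b and Arpc3 2 of 7 and 6 of 8.

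Of the actin-related proteins, Actr3b was the most abundant member, at 224 ± 42.6 CPM (SD, n = 31) and 137 to 305 CPM over mice. Actr3, the widely used form of the same subunit, was at 112 ± 21.7 CPM and ranged from 47.1 to 144 CPM. Actr2 was at 91.2 ± 18.3 CPM and ranged from 49.6 to 132 CPM. Actr3b exceeded Arpc2, the next gene in the order, in 28 of 31 mice.

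Arpc2 and Arpc4 make up the core of the complex that holds the other subunits. Arpc2 was the second most abundant member at 199 ± 31.9 CPM, and Arpc4 was at 86.9 ± 14.9 CPM. Arpc3, which helps to join Actr3 to the core, was at 58.4 ± 12.6 CPM. Arpc4 and Actr2 were the neighbours in the order that could not be separated, since Actr2 was higher in only 18 of 31 mice and their mean log2 ratio was 0.06 with an SD of 0.39.

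Among the subunits with a second gene, Arpc1a was at 163 ± 37.8 CPM and Arpc1b at 24.8 ± 6.01 CPM, the lowest member. Arpc5l was at 132 ± 16.2 CPM and had the smallest coefficient of variation (12.2%), and Arpc5 was at 44.8 ± 10.3 CPM. From high to low the order was Actr3b, Arpc2, Arpc1a, Arpc5l, Actr3, Actr2, Arpc4, Arpc3, Arpc5 and Arpc1b. The steps from Arpc4 to Arpc3 and from Arpc5 to Arpc1b held in 31 of 31 mice, and the others apart from Actr2 and Arpc4 held in 24 to 28. In all steps except Actr3 to Actr2, Arpc4 to Arpc3 and Arpc5 to Arpc1b, the mean log2 ratio was smaller than its SD over mice.

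Some levels can hold reads of other genes. Arpc1b shares 931 bases with Pdap1, which lies on the opposite strand and had 455 to 1016 counts per mouse. QuantSeq Fwd libraries keep the strand, but whether the counting used it is not given in the sources used here, so the level of Arpc1b is uncertain to that extent. Arpc4 shares 283 bases with Ttll3 on the same strand, which had 3 to 56 counts, and Arpc3 overlaps Gm42829 on the same strand, which had 1 to 59 counts. The longest close copy was Gm8822, a processed pseudogene 98.8% identical to Actr3 over 2348 bases, with 0 to 20 counts per mouse. Pseudogenes similar to Actr2, Arpc1a, Arpc1b, Arpc2 and Arpc5 had at most 3 counts in any mouse where the tables list them, and that of Arpc2 is not listed. Arpc5l overlaps Rpl35 on the opposite strand, and its transcripts hold a stretch of about 200 bases with many relatives elsewhere in the transcriptome.

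The share of the second gene within each pair gave which gene had more reads in these BLA punches, within the limits of mapping and neighbouring tissue given above. Arpc1b gave 13.8% ± 4.81 of the reads of Arpc1a and Arpc1b together (SD, n = 31), Arpc5l gave 74.7% ± 4.35 of its pair, and Actr3b gave 66.6% ± 5.28 of its pair. The first gene had more reads in the Arpc1 pair and the second in the other pairs. This held in every mouse, since the shares ran from 8.70% to 31.4%, from 63.2% to 82.2% and from 58.1% to 79.1%. Arpc1b is the form known from blood and immune cells, and Actr3b is known from brain.

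By genotype, the shares overlapped throughout. The Arpc1b share was 9.16%, 14.02% and 17.5% (lowest, median and highest) in WT and 8.70%, 11.7% and 31.4% in CYFIP1 OE mice. The 2 highest values were CYFIP1 OE mice, the mouse of low connectivity and a line 1 mouse at 26.3%. The Arpc5l share was 63.2%, 74.6% and 80.4% in WT and 66.5%, 75.4% and 82.2% in CYFIP1 OE mice. The Actr3b share was 58.1%, 66.1% and 75.8% in WT and 60.0%, 67.3% and 79.1% in CYFIP1 OE mice. CYFIP1 OE minus WT was 0.846, 0.744 and 1.62 percentage points for the 3 pairs, none past the threshold in a two-sided permutation test of genotype within line (p = 0.641, 0.633 and 0.407, 100000 resamples). Without the mouse of low connectivity the Arpc1b difference was -0.381 points.

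Between lines, the Arpc5l share was 76.3% ± 3.61 in line 1 and 73.3% ± 4.59 in line 3, a difference of -2.96 points (permutation p = 0.0584 within genotype). It was -3.54 points without the 4 mice aged 77 days (permutation p = 0.0268). The other line differences and all 3 sex differences had permutation p-values of 0.280 or more. In all, 9 such comparisons of shares were made, and the p-values are unadjusted.

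**Figure D2:**
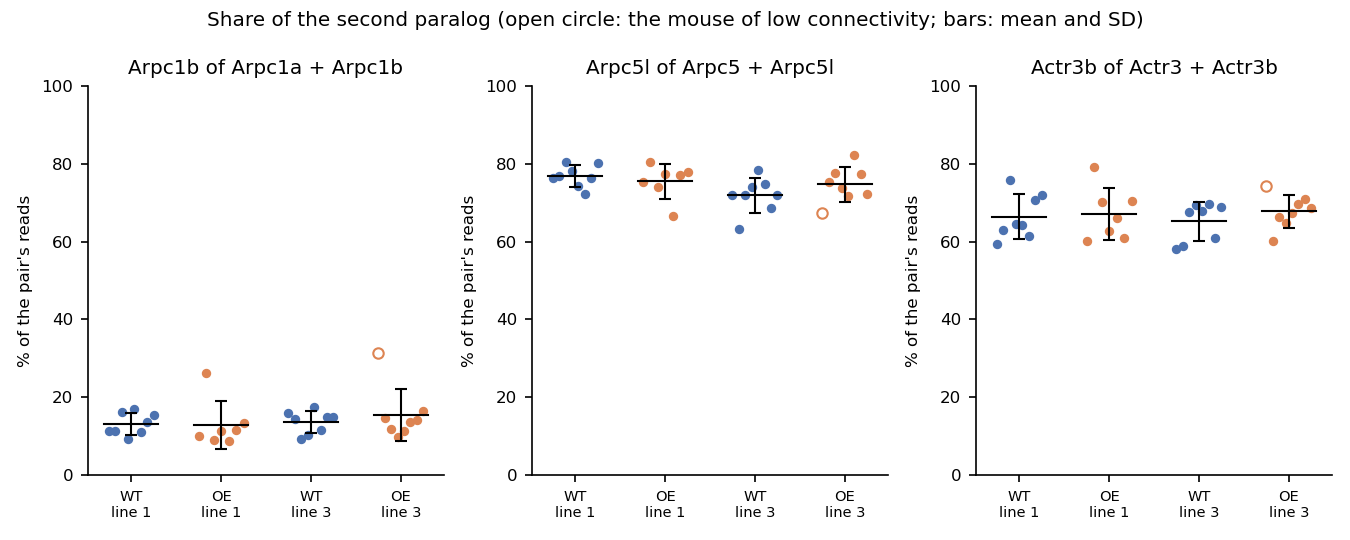
Percent of a pair's reads that came from its second gene (y axis, from 0 to 100) in each mouse, by genotype and line (x axis); bars are the mean and SD and the open circle is the mouse of low connectivity. Arpc1b is at most 31.4%, and Arpc5l and Actr3b are at least 63.2% and 58.1%, in each of the 31 mice.

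To ask whether transcripts of the complex differ when its upstream regulator is overexpressed, CYFIP1 OE was compared with WT over both lines, with sex and line as further terms. No member passed the test. Log2 fold changes ran from -0.12 (Arpc1b) to 0.07 (Arpc2), 5 were above and 5 below 0, and their median was -0.0012, beside -0.01 over all genes tested. In edgeR's quasi-likelihood test 0 of the 10 had an unadjusted p under 0.05, where 4.3% of all genes did, 0 had one under the study's threshold of 0.005, where 0.293% did, and the adjusted p was 0.999 for each. DESeq2 also gave 0 with an unadjusted p under 0.05, where 814 of 17404 genes had one.

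Standard errors were 0.08 to 0.14 on the log2 scale. Over the 10 genes the 95% intervals reached from a fold of 0.770 (Arpc1b) to 1.22 (Actr2). The summed level of the 10 genes had a median of 1131 CPM in WT and 1108 in CYFIP1 OE mice of line 1, and 1130 and 1190 CPM in line 3, with overlapping ranges.

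**Figure D3:**
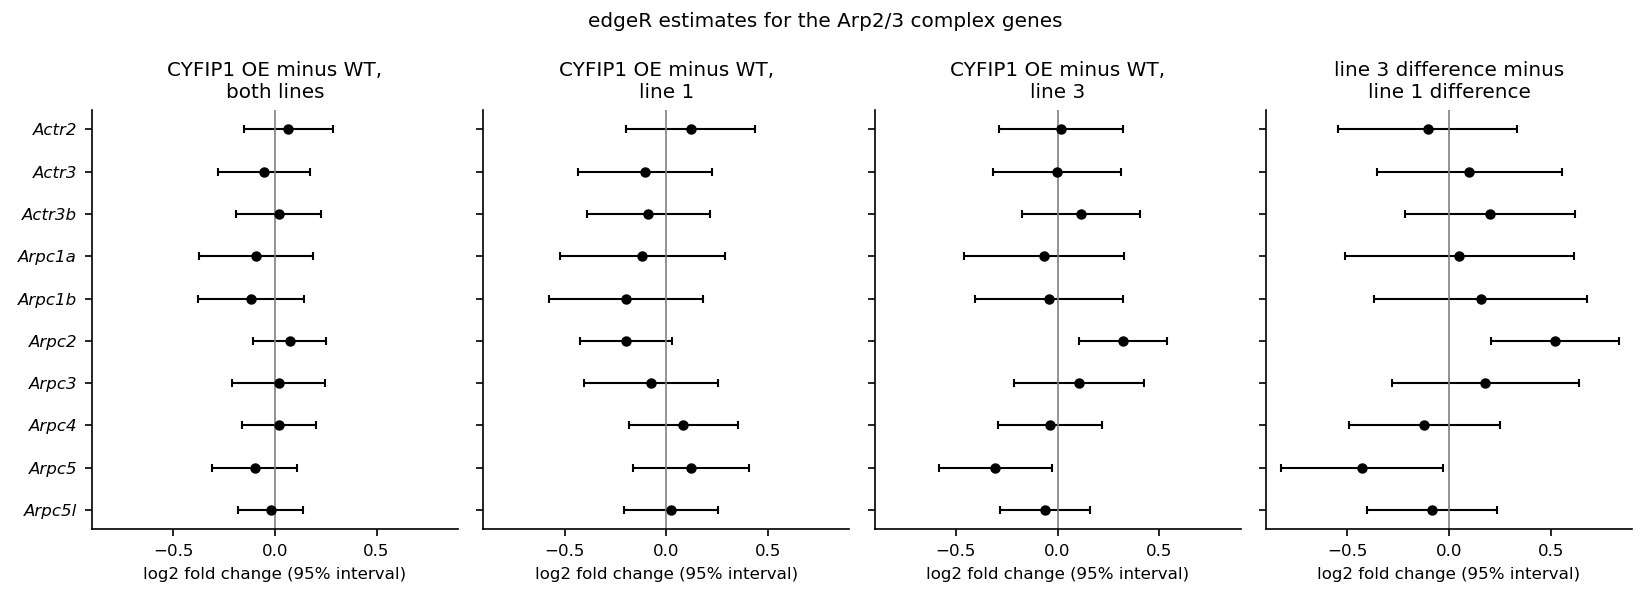
Log2 fold changes from edgeR (points) with 95% intervals (bars, x axis) for each Arp2/3 complex gene (y axis), for CYFIP1 OE against WT over both lines, in line 1, in line 3, and for the difference between lines. Over both lines each interval includes 0, and for the difference between lines those of Arpc2 (0.52) and Arpc5 (-0.43) do not.

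Within lines, Arpc2 and Arpc5 had genotype differences of opposite sign, and in both genes the sign turned between lines. The sign also turned in Actr3b (log2 fold change -0.09 in line 1 and 0.12 in line 3) and Arpc3 (-0.07 and 0.11). It turned the other way in Arpc4 (0.08 and -0.04) and Arpc5l (0.02 and -0.06). Arpc2 and Arpc5 were the members with an unadjusted p under 0.05 for the difference between lines in edgeR. Arpc2 had 180, 204 and 218 CPM (lowest, median and highest) in WT and 125, 177 and 208 CPM in CYFIP1 OE mice of line 1. In line 3 it had 140, 185 and 232 CPM in WT and 191, 229 and 278 CPM in CYFIP1 OE mice. Groups overlapped in both lines, but 5 of 7 CYFIP1 OE mice lay under the WT mean in line 1 and 8 of 8 above it in line 3.

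For Arpc2 the log2 fold change of CYFIP1 OE against WT was -0.20 ± 0.11 (SE) in line 1 and 0.32 ± 0.11 in line 3, a fold of 1.25 in line 3 (95% interval 1.08 to 1.45). The difference between lines was 0.52 ± 0.15 on the log2 scale, with an unadjusted p of 0.00181 and an adjusted p of 0.527 in edgeR. Within lines the unadjusted p in edgeR was 0.0818 in line 1 and 0.00475 in line 3. In an exact two-sided permutation test of the CPM, p was 0.0333 in line 1 and 0.00591 in line 3. It was among 20 such tests over members and lines. That test took no account of sex and was run on the members only, so no share over all genes stands beside it. Arpc2 was the only member with a within-line p under 0.05 in these exact tests, and it did not pass the threshold after adjustment over all genes.

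Arpc5, whose subunit bridges the core and Arpc1, ran the other way. It had 30.9, 39.4 and 47.2 CPM in WT and 36.6, 40.9 and 61.1 CPM in CYFIP1 OE mice of line 1. In line 3 it had 38.3, 49.4 and 82.8 CPM in WT and 29.9, 40.3 and 60.2 CPM in CYFIP1 OE mice. In line 3, 7 of 8 CYFIP1 OE mice lay below the WT mean, and the highest value of all was a WT mouse. The log2 fold change was 0.12 ± 0.14 in line 1 and -0.31 ± 0.14 in line 3, and the difference between lines was -0.43 ± 0.20 (unadjusted p = 0.0354, adjusted p = 0.581 in edgeR). The exact permutation p in line 3 was 0.0906. Without the WT mouse at 82.8 CPM the line 3 value was -0.20 (unadjusted p = 0.140) and the difference between lines -0.32 (0.0861). Leaving out each mouse in turn gave -0.50 to -0.32 for that difference in Arpc5 and 0.45 to 0.58 in Arpc2.

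These counts have a high background. Of the 10 members, 2 had an unadjusted p under 0.05 for the difference between lines, where 8.1% of all genes did, and 1 (Arpc2) had one under 0.005, where 0.843% did. In line 3, 2 had a p under 0.05 beside 7.93% of all genes, and 1 under 0.005 beside 0.93%. In line 1, 0 had a p under 0.05 beside 3.96%. After adjustment over all 17428 genes 0 members passed in any of these, with edgeR or with DESeq2.

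The Arpc2 and Arpc5 values depended on a few libraries and on the terms in the fit. Without the mouse of low connectivity, the line 3 log2 fold change was 0.28 for Arpc2 (unadjusted p = 0.0121) and -0.28 for Arpc5 (0.0509). Without all 4 mice whose label begins with the same prefix as that mouse, 3 of them WT, it was 0.22 for Arpc2 (0.0631) and -0.13 for Arpc5 (0.366), and the difference between lines was 0.42 for Arpc2 (0.0103) and -0.26 for Arpc5 (0.193). Without the mice aged 77 days that difference was 0.48 for Arpc2 (0.0192) and -0.32 for Arpc5 (0.160). With 5 surrogate variables, which are estimates of unmeasured variation, the line 3 value was 0.10 for Arpc2 (0.222) and -0.14 for Arpc5 (0.275), and the difference between lines was 0.23 for Arpc2 (0.0536) and -0.10 for Arpc5 (0.587). The surrogate variables were estimated without a genotype by line term and can take up part of that difference. These values therefore cannot show how much of it is unmeasured variation.

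In line 1 the genotypes can hardly be told apart from the prefixes of the mouse names, whose meaning the labels do not give. Of the 8 WT mice of line 1, 7 shared a prefix that no CYFIP1 OE mouse had, 6 of the 7 CYFIP1 OE mice had prefixes that no WT mouse had, and 1 mouse of each genotype shared a prefix. In line 3 all 16 mice had prefixes found in both genotypes. The line 1 values, and with them the differences between lines, carry this limit. Among mice with a prefix found in both genotypes, with the prefix as a term, the genotype log2 fold change over both lines was 0.24 for Arpc2 (unadjusted p = 0.145 in edgeR) and -0.12 for Arpc5 (0.511).

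Estimates for markers of neighbouring regions also turned sign between lines, with ranges that overlapped. The 4 striatal neuron markers used (Drd1, Ppp1r1b, Rgs9 and Adora2a) all had lower estimates in CYFIP1 OE mice in line 1 and higher ones in line 3, with median log2 fold changes of -0.77 and 0.73. Their summed level ranged from 1272 to 2059 CPM in WT and from 254 to 2328 CPM in CYFIP1 OE mice of line 1, and from 151 to 2638 and 159 to 2958 CPM in line 3. The 4 thalamic neuron markers (Tcf7l2, Prkcd, Slc17a6 and Calb2) went the other way, with medians of 0.71 in line 1 and -0.33 in line 3, and summed levels of 24.9 to 114 and 38.8 to 119 CPM in WT and CYFIP1 OE mice of line 1 and 29.3 to 200 and 21.4 to 159 CPM in line 3. At an unadjusted p under 0.05, 0 of the striatal markers passed in either line, and of the thalamic markers 1 passed in line 1 and 0 in line 3. The 5 basolateral amygdala markers all had higher estimates in CYFIP1 OE mice of line 1 (median 0.59, 1 with an unadjusted p under 0.05) and 2 of 5 in line 3 (median -0.08). The lists are named for a region or cell type, and how specific their genes are to it in this tissue was not tested. Neurod2 and Slc17a7 are in both the basolateral amygdala list and the excitatory neuron list. In tissue RNA a smaller number of cells of a type and less RNA per cell cannot be told apart.

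Over mice, after sex, line and genotype had been removed from log2 CPM, Arpc2 had a Pearson r of -0.75 with the mean of the thalamic markers (Spearman rho -0.78) and 0.48 with that of the striatal markers (rho 0.62). Without the mouse of low connectivity these were -0.75 and 0.74. Arpc5 had r = -0.59 with the striatal markers (rho -0.47) and 0.36 with the thalamic ones (rho 0.42), and -0.71 and 0.35 without that mouse. With the basolateral amygdala markers Arpc5 had r = 0.47 (rho 0.47), and 0.51 without that mouse. Arpc2 had r = -0.16 with them, and -0.26 without it. Such likeness was not particular to these 2 genes. Actr3b had r = 0.73 with the striatal and -0.42 with the thalamic markers. Its difference between lines had an unadjusted p of 0.329 in edgeR. The genotype by line difference was not removed, so it remains in the genes and in the markers. These correlations are therefore not separate from the sign turns between lines given above. These values describe 31 mice that share a dissection, and the part of neighbouring tissue in the Arpc2 and Arpc5 differences was not tested.

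**Figure D4:**
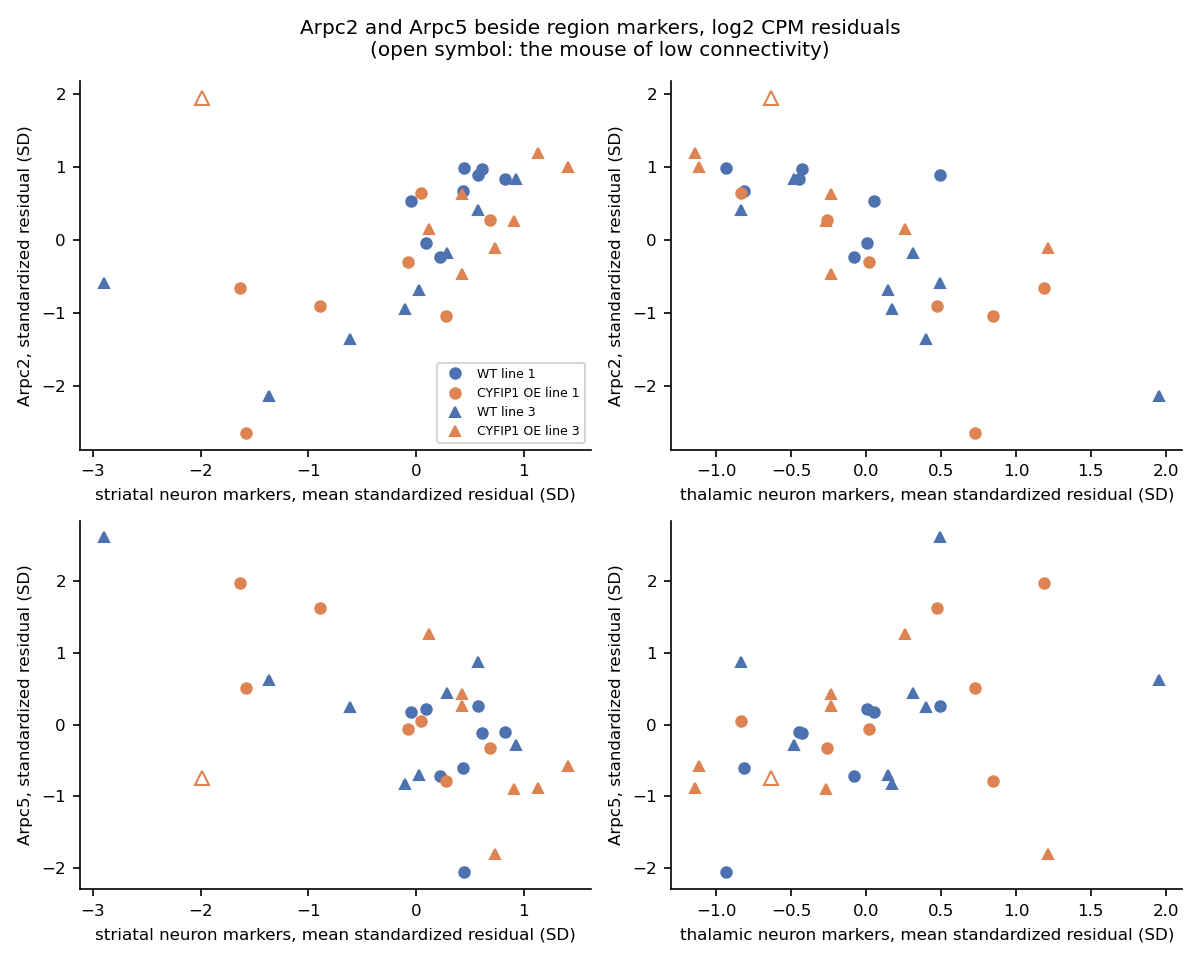
Arpc2 (top) and Arpc5 (bottom), as standardized residuals of log2 CPM after sex, line and genotype were removed (y axes, SD), against the mean standardized residual of the striatal (left) or thalamic (right) neuron markers (x axes, SD), 1 symbol per mouse. Arpc2 falls as the thalamic markers rise (r = -0.75), and the open triangle, the mouse of low connectivity, lies far from the others for Arpc2 and the striatal markers. The genotype by line difference was not removed from either axis.

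Line and sex were compared for the members in the same fit. Line 3 minus line 1 ran from -0.05 (Arpc5l) to 0.18 (Arpc5) on the log2 scale, with 8 of 10 above 0 and 0 with an unadjusted p under 0.05, where 3.31% of all genes had one. Female minus male was above 0 in 10 of 10 genes, from 0.03 (Arpc1a) to 0.21 (Arpc5), while 46.6% of all genes were above 0. It was above 0 in 9 of 10 without the mouse of low connectivity, a male (Arpc1a -0.047), in 8 of 10 without the mice of its name prefix, and in 6 of 10 with 5 surrogate variables. None of the 10 had an unadjusted p under 0.05, where 4.62% of all genes had one, and the smallest adjusted p was 0.970 in edgeR. Genes of 1 complex in the same mice are not independent, and the 10 estimates share those mice.

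The members did not vary over mice as a single group. Of 45 pairs, 27 had a Pearson r above 0, the median was 0.06, and values ran from -0.36 (Arpc1b and Arpc5) to 0.73. The highest values joined Actr2 with Actr3 (0.73, rho 0.45), Actr3 with Arpc1a (0.73, rho 0.50) and Actr2 with Arpc1a (0.59, rho 0.25). Others were Actr3b with Arpc5l (0.57), Arpc4 with Arpc5 (0.57), Arpc1a with Arpc5l (0.56) and Arpc2 with Arpc3 (0.52).

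The mouse of low connectivity carried part of this. Without it, Actr2 with Actr3 was 0.64, Actr3 with Arpc1a 0.47, Actr2 with Arpc1a 0.42, and Arpc1a with Arpc5l 0.04. Actr3b with Arpc2 rose from 0.42 to 0.70 and Arpc4 with Arpc5 was 0.60. Arpc1b was the 1 gene with a negative r to the mean of the other 9 members, -0.24 with that mouse and -0.27 without it. All genes were read from the same libraries and share their depth and composition, so these values are descriptive.

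**Figure D5:**
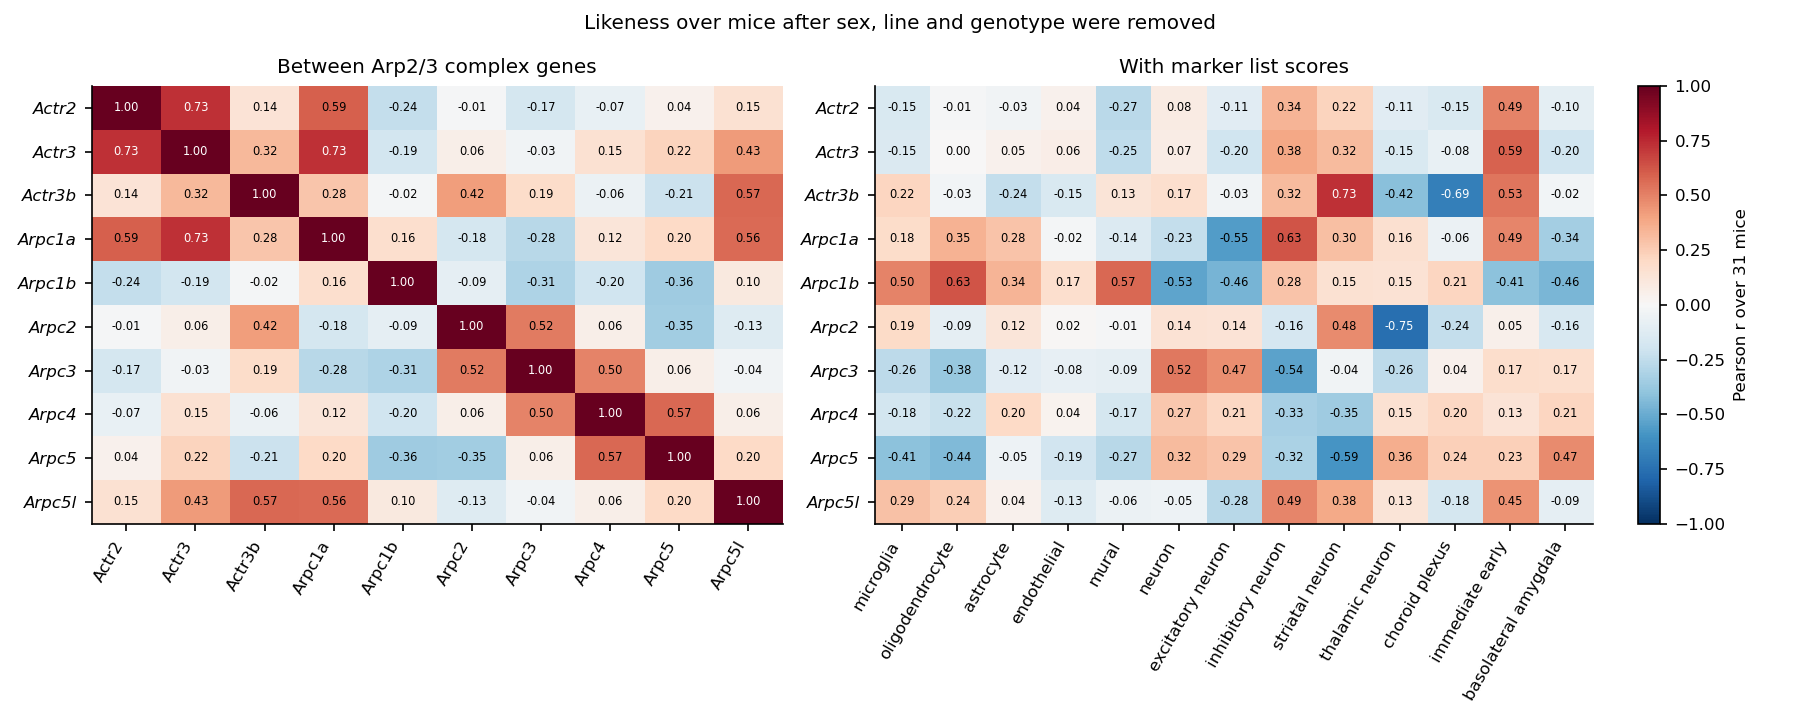
Pearson r over 31 mice (color, from -1 to 1, printed in each cell) between Arp2/3 complex genes (left) and between these genes and the mean of each marker list (right), after sex, line and genotype were removed from log2 CPM. With the mouse of low connectivity included, Actr2, Actr3 and Arpc1a form the block of highest values. Arpc1b is set apart by r = 0.63 with oligodendrocyte markers and -0.53 with neuron markers.

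Beside cell type markers, Arpc1b had r = 0.63 with the 10 oligodendrocyte markers (rho 0.61), 0.57 with the 6 mural cell markers and 0.50 with the 10 microglia markers, and -0.53 with the 6 neuron markers (rho -0.51). These were 0.64, 0.57, 0.50 and -0.53 without the mouse of low connectivity. All 10 oligodendrocyte markers had lower estimates in CYFIP1 OE mice in both lines (median log2 fold changes of -0.45 and -0.19), 0 of them with an unadjusted p under 0.05 in either line. Their summed level ranged from 1988 to 5831 CPM in WT and from 1171 to 5111 CPM in CYFIP1 OE mice of line 1, and from 1520 to 9210 and 1288 to 5361 CPM in line 3, and their part in the lower Arpc1b estimate was not tested. Actr3b was highest with the striatal markers (r = 0.73, 0.67 without that mouse) and lowest with the choroid plexus markers (r = -0.69, and -0.66). Actr3 had r = 0.59 and Actr3b 0.53 with 5 immediate early genes, and 0.47 and 0.45 without that mouse. Arpc1a had r = 0.63 with the inhibitory neuron markers, which was 0.31 without it. Its r with the astrocyte markers was 0.28 with that mouse and 0.50 without it. With the endothelial markers r ran from -0.19 (Arpc5) to 0.17 (Arpc1b) over the members.

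The genes most like a member over mice were found among all those tested. Closest to the mean profile of the members were Rab15 (r = 0.87), Arf3 (0.85), Chmp4b (0.82), Atp6v1e1 (0.81) and Sf3b5 (0.81). Arpc1b was closest to S1pr5 (0.78) and Ngfr (0.75). Its partner Arpc1a was closest to Atp5a1 (0.92) and Glud1 (0.91), which were 0.82 and 0.79 without the mouse of low connectivity. Actr3 was closest to Calm2 (0.90) and Gm26723 (0.90), and Actr3b to Ttl (0.85) and Ppp3r1 (0.85). Arpc5 was closest to Ptprg (0.78) and Prnp (0.76), and Arpc5l to Gm4853 (0.84, 0.58 without that mouse) and Dazap1 (0.83).

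Genes that act on the complex, and genes of actin and its turnover, were read from 4 lists with 50 symbols. The 47 symbols found in the annotation all passed the filter. The rest, all from the list of other activators and partners, were not names in that annotation. Over both lines 17 of the 47 were above 0 and 30 below 0 in CYFIP1 OE against WT, and 1 had an unadjusted p under 0.05 (2.13% beside 4.3% of all genes). It was Washc4, a subunit of the WASH complex that activates Arp2/3 on endosomes, at 33.1 ± 5.88 CPM in WT and 27.7 ± 6.42 CPM in CYFIP1 OE mice (log2 fold change -0.25 ± 0.11), and its adjusted p was 0.999 in edgeR. Of the 15 CYFIP1 OE mice, 12 lay below the WT mean.

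Of the 11 genes of the WAVE complex, 2 were above and 9 below 0 and 0 had an unadjusted p under 0.05. Cyfip2 and Abi2, its most abundant members, had log2 fold changes of -0.02 ± 0.08 and -0.06 ± 0.09. The 15 other activators and partners had 6 above and 9 below 0, with Wipf3 at -0.05 ± 0.13 and Wipf2 at 0.10 ± 0.07. The 9 inhibitors and branch removers had 5 above and 4 below 0, with Coro1c, a coronin, at 0.05 ± 0.10 and Gmfb, which removes branches, at 0.11 ± 0.08. The 12 genes of actin and its turnover had 4 above and 8 below 0, with Actb at 0.10 ± 0.10 and Actg1 at -0.01 ± 0.10. List medians were -0.04 to 0.05, beside -0.01 over all genes.

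For the difference between lines, 6 of the 47 pathway genes (12.8%) had an unadjusted p under 0.05, beside 8.1% of all genes, and 0 passed after adjustment in edgeR. These 6 were named after their values were seen. Wasf2 (0.76 ± 0.31), Wipf3 (0.69 ± 0.24), Coro2b (0.43 ± 0.21) and Actb (0.40 ± 0.19) had the sign of Arpc2, that is, a lower estimate in CYFIP1 OE mice in line 1 and a higher one in line 3. Coro2a (-1.20 ± 0.36) and Wasf3 (-0.52 ± 0.24), a WAVE isoform, had the sign of Arpc5. Their adjusted p-values were 0.528 to 0.605. Over whole lists the difference between lines was above 0 in 8 of 11 WAVE complex genes and 8 of 15 other activators and partners. It was above 0 in 7 of 9 inhibitors and branch removers. Of the 12 genes of actin and its turnover, 3 were above and 9 below 0 (median -0.18), so most went against the sign of Actb.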

How the data were processed

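Total RNA of the basolateral amygdala of 31 mice was made into Lexogen QuantSeq 3′ Fwd libraries. The authors named STAR, Picard and Salmon with build GRCm38 and deposited expected counts, 1 table for each mouse, with versions that are not given in the sources used here. These estimated counts were rounded. Gene names came from GENCODE mouse release M 21, which named 48349 of 48709 identifiers. The filter kept genes with 10 or more reads in 20% or more of the mice. Genotype was tested with edgeR 4.0.16 (R 4.3.3; TMM, quasi-likelihood test) with sex and line as terms, and by line in a fit with 4 groups and sex, with Benjamini-Hochberg adjustment over all genes tested. The sequencing components that the study also used were not used here, and 5 surrogate variables (sva 3.50.0) were an alternative, as was DESeq2 1.42.0. The surrogate variables were estimated with sex, line and genotype but no genotype by line term. Shares were tested by permutation (numpy 2.4.6, 100000 resamples). Genotype within line was tested by exact permutation of CPM. Correlations (rho from scipy 1.17.1) used log2 CPM (prior count 2) after removal of sex, line and genotype, with no genotype by line term. Fits and permutation code were tested on simulated data. Members and lists were chosen with earlier results of these data known. One marker and 1 gene list are not reported here. Named pathway genes were the 2 most abundant of each list, Cyfip1, and those with an unadjusted genotype p under 0.05, and 4 others were named after their values were seen, for the difference between lines. Genes most like the members were the 5 with the highest r to their mean profile and 2 for each gene of a pair.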

Additional observations from a re-analysis of the deposited data

Results flagged for a closer look

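In 52 groups of 7 or 8 mice, 7 values lay far from the rest of their group by Dixon's test at the 95% level, which chance gives in about 1 of 20 groups. Of these, 4 belong to the mouse of low connectivity, a CYFIP1 OE mouse of line 3. It had Actr3 at 47.1 CPM (others 102 to 142), Arpc1a at 48.9 CPM (others 144 to 203), Arpc5l at 74.9 CPM (others 118 to 153) and an Arpc1b share of 31.4% (others 9.86% to 16.4%). A CYFIP1 OE mouse of line 1 had an Arpc1b share of 26.3% (others 8.70% to 13.4%). A WT mouse of line 1 had Actr3 at 144 CPM (others 97.4 to 119), and a WT mouse of line 3 had Arpc5 at 82.8 CPM (others 38.3 to 53.4).

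The genotype difference in Arpc2 differed between lines by 0.52 on the log2 scale in a test of that difference (unadjusted p = 0.00181, adjusted p = 0.527 in edgeR).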

How the results depend on the processing

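No member reached an adjusted p under 0.05 in any setting (smallest 0.823 by genotype, 0.174 in line 3, 0.210 for the difference between lines), and 976 of 1098 alternative values kept their direction and side of the threshold. The small genotype log2 fold changes turned sign as follows. With 5 surrogate variables Actr3b was -0.033, Arpc2 -0.023, Arpc3 -0.085, Arpc4 -0.0041 and Arpc5l 0.0048. Without the mouse of low connectivity Actr3 was 0.0094, Arpc3 -0.028 and Arpc5l 0.028. Without mice of its name prefix, chosen after seeing the data, Actr3 was 0.021, Arpc1a 0.020, Arpc2 -0.014, Arpc3 -0.028, Arpc5 0.011 and Arpc5l 0.025. Without mice aged 77 days Actr3 was 0.036 and Arpc4 -0.037. In name groups with both genotypes Actr2 was -0.062 and Actr3b -0.14. Leaving out 1 mouse gave -0.10 to 0.0094 for Actr3, -0.013 to 0.060 for Actr3b, -0.037 to 0.073 for Arpc3, -0.014 to 0.059 for Arpc4 and -0.038 to 0.028 for Arpc5l.

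Members with an unadjusted p under 0.05 numbered 1 by line with 5 surrogate variables, without mice aged 77 days and in WT mice alone, and 1 by sex without a filter, with 5 surrogate variables and without mice aged 77 days, each time Arpc5. For the difference between lines they numbered 0 with 5 surrogate variables, 1 without mice aged 77 days and 1 without the name prefix. In line 3 they numbered 0, 1 without the mouse of low connectivity, and 0 without the prefix. Leaving out 1 mouse gave 1 to 2 for the difference between lines and for line 3, and 0 to 1 for line 1, line and sex. Of all 17428 genes, 774 had such a p by line with 5 surrogate variables and 479 without mice aged 77 days. By sex these numbers were 867 and 976. In line 3 there were 1574 genes without the mouse of low connectivity and 1005 without the prefix. For the difference between lines there were 1403 without the prefix.

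The Arpc1b share by genotype was -0.381 points without the mouse of low connectivity and -0.282 in line 1 alone (-0.381 to 1.24 leaving out 1 mouse), and by sex 1.22 without that mouse and 0.031 as a log2 ratio (-0.876 to 1.22). The Arpc5l share by genotype was -1.33 in line 1 alone (-1.29e-05 to 1.36) and by line -3.54 without mice aged 77 days (-3.66 to -2.29). The Actr3b share by line was 0.775 without mice aged 77 days (-0.749 to 0.663) and by sex 0.342 without the mouse of low connectivity (-1.05 to 0.444). The cause was not tested. Of all genes, 750 had an unadjusted p under 0.05 by genotype, 576 by line, 806 by sex, 691 in line 1, 1382 in line 3 and 1412 for the difference between lines, and without a filter (32936 genes) 2534, 2431, 2632, 2208, 3089 and 3123. With 5 surrogate variables there were 743 in line 3 and 640 for the difference between lines, which was 935 without mice aged 77 days. By line there were 1069 in WT mice alone and 959 without the prefix. No paired analysis was possible because the labels give no replicate numbers that pair mice across genotypes, and the name groups with both genotypes were fitted with the group as a term instead. Counting error limits Arpc1b most.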
